A study of Mus musculus with 4 samples.

Results

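Bleomycin hydrolase (Blmh), the enzyme that inactivates bleomycin (BLM), was measured together with Nfe2l2, which encodes the transcription factor NRF2, and 8 antioxidant genes, Nqo1, Hmox1, Gclc, Gclm, Txnrd1, Srxn1, Slc7a11 and Sod2. These 10 genes were taken by symbol from the 24441 genes of the deposited table; the rule uses no measured value, but the genes were proposed with earlier results of these data known. The table holds skin RNA of 2 libraries from GSDMD KO mice (GSDMD-/-) and 2 libraries from WT mice, all female C57BL/6 animals with a labelled age of 8 weeks. Every mouse had received subcutaneous BLM every other day, as a model of scleroderma, and the skin lesion was taken at day 28. No library of saline-treated skin was analysed here, so the values compare genotypes under BLM and do not measure a response to BLM. The KO line had been made by injecting Cas9 mRNA and a guide RNA into fertilized C57BL/6 eggs, so Gsdmd was targeted in the whole animal and not in a chosen cell type. The libraries of a group are numbered 1 and 2 in the labels, which do not say whether tissue was pooled, so p-values measure the spread between these libraries only.

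BLM binds iron and, with oxygen, produces reactive species that break DNA. BLMH is a cysteine aminopeptidase that removes an amide group from BLM and so inactivates it, and in the outer epidermis it also takes part in breaking filaggrin peptides down to free amino acids, which hold water in the horny layer. NRF2 is kept low by KEAP1, an adaptor that hands it to a CUL3 ubiquitin ligase. When oxidants or electrophiles modify KEAP1, NRF2 builds up, pairs with a small MAF protein and binds antioxidant response elements, where BACH1 can compete with it. Known targets make glutathione (Gclc, Gclm, and the cystine importer Slc7a11), recycle thioredoxin and peroxiredoxins (Txnrd1, Srxn1), reduce quinones (Nqo1) and degrade haem (Hmox1). Sod2 encodes the manganese superoxide dismutase of mitochondria and is best known as an NF-κB target.

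The core of the antioxidant response element, TGACNNNGC, was searched on both strands of the RefSeq promoter windows of build GRCm38.p6, which run from 250 bases before to 50 bases after an annotated start. Of the 10 genes, 8 had a window (Txnrd1 had 3), and Hmox1 and Gclc had none. A match stood in 5 of the 10 windows, in 5 genes, and the windows of Nqo1, Slc7a11 and Sod2 held none. Elements outside the windows were not searched, so a window without a match does not show that the gene lacks the element. The matches are shown because this element is the sequence through which NRF2 reaches its targets, so that it can be compared between Blmh and the antioxidant genes. Among all 32851 windows of the same length, 4071 (12.392%) held a match. The stretches are printed 5′ to 3′ on the strand of the gene, with 10 bases on either side and the 9 bases of the match in capitals.
Nfe2l2, chr2:75704885-75704913, minus strand, match from 240 bases before the start: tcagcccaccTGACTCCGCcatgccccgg
Gclm, chr3:122245413-122245441, plus strand, match from 134 bases before the start: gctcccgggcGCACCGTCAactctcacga
Txnrd1, chr10:82859104-82859132, plus strand, match from 92 bases before the start: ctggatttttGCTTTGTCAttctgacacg
Srxn1, chr2:152105542-152105570, plus strand, match from 29 bases after the start: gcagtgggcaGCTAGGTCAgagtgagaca
Blmh, chr11:76945670-76945698, plus strand, match from 25 bases after the start: ccgatggcgcTGACTCAGCaacgcgaggg

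In Gclm, Txnrd1 and Srxn1 the letters match on the opposite strand and are therefore printed as the reverse complement of the searched core. The capitals of Blmh also contain TGACTCA, the core bound by AP-1, which was present in 1709 (5.202%) of the 32851 windows. TGACTCA also stood at 2 places in the Srxn1 window, outside the stretch shown. A match is a description of letters and was not tested for binding.

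The values are not whole numbers and were read as FPKM, that is, fragments relative to transcript length and library size, and each library summed to between 448544 and 462251 FPKM. By the steps between low values, a fragment on 1 kb was worth about 0.0570 to 0.0782 FPKM, so at least about 200.3 fragments stood behind each value of the 9 genes other than Slc7a11, if the longest annotated transcript is taken. Gsdmd itself, the targeted gene, was at 14.05 and 18.2 FPKM in the WT and at 3.53 and 2.26 FPKM in the KO libraries, in the order replicate 1 and replicate 2 that is kept throughout. It was thus low but not at 0 in both libraries labelled KO (log2 fold change -2.14, standard error, SE, 0.29, adjusted p = 0.248 by limma), and which exons the line lacks is not given in the sources used here. Skin markers were present, with 15 of 15 epidermal genes detected in every library, but the libraries differed in composition. The first principal component, with 74.1% of the variance, ran from -53.9 and -27.7 in the WT libraries over 6.17 in KO replicate 1 to 75.4 in KO replicate 2. All 12 macrophage and all 10 endothelial markers were lowest in KO replicate 2, and all 15 hair follicle markers were highest in KO replicate 1. In bulk skin, fewer cells of a type and less RNA per cell cannot be told apart, and this holds for every difference given here.

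Gene by gene, all KO values lay above all WT values in 4 of the 9 tested genes (Gclc, Gclm, Nqo1 and Txnrd1) and below them in 3 (Hmox1, Sod2 and Srxn1), while Blmh and Nfe2l2 overlapped; with the libraries centred on epidermal markers these counts were 0 and 6, where 1.05% of all tested genes were higher and 70.9% lower. Among all 13027 tested genes, 35.3% were higher and 20.5% lower in the same sense without centring; the counts for the 9 genes are read against these shares. The study's threshold, an adjusted p under 0.05 together with a change past 1 log2 unit, was reached in limma by 0 of the 9 genes and by 0 of all 13027 (0%). The adjusted p-values of the 9 genes ran from 0.277 to 0.983 by limma. The paper applied the threshold in DESeq2, a count model, and describes many chemokines as significantly down-regulated. At an unadjusted p under 0.05, 3 of the 9 passed, Gclc and Gclm higher and Sod2 lower, where 17.1% of all tested genes did. With a log2 fold change above 1 in addition, Gclm alone remained, against 6.16% of all genes higher and 4.14% lower. The median log2 fold change of the 9 genes was 0.49, beside 0.11 over all tested genes. With 2 libraries a group, the smallest p of an exact permutation test (two-sided) for any gene alone is 0.333.

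**Figure D1:**
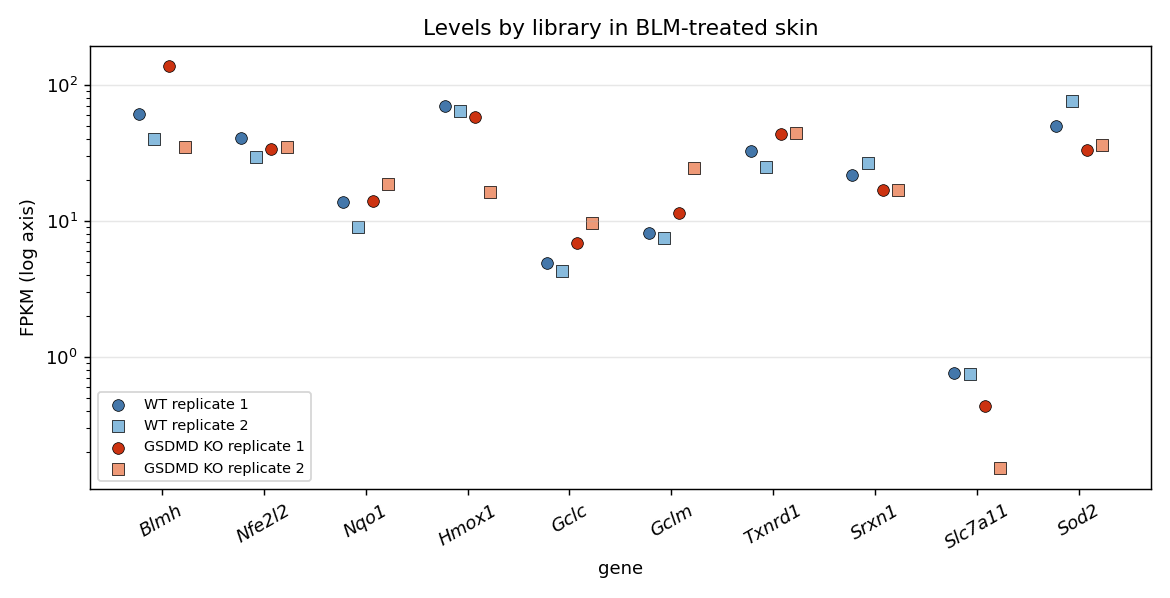
FPKM (log axis) of the 10 genes in each of the 4 libraries, circles for replicate 1 and squares for replicate 2, blue for WT and red for GSDMD KO. Blmh shows the widest gap between the KO libraries among the tested genes, at 137.0 and 34.8 FPKM, while Txnrd1 and Srxn1 are almost level within the KO group.

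In WT skin, Hmox1 (67.1 FPKM on average), Sod2 (62.8), Blmh (50.1), Nfe2l2 (34.8), Txnrd1 (28.8) and Srxn1 (24.1) followed each other with overlapping libraries at every step. Below them stood Nqo1 (11.4), Gclm (7.76), Gclc (4.62) and Slc7a11 (0.756), each separated from the next. In GSDMD KO skin the order was Blmh (85.9), Txnrd1 (43.8), Hmox1 (37.0), Sod2 (34.7) and Nfe2l2 (34.2), with overlap between neighbours, then Gclm (18.1), Srxn1 (16.9) and Nqo1 (16.3), again overlapping, and then Gclc (8.26) and Slc7a11 (0.294). Txnrd1 stood in the fifth place in WT and in the second in KO skin, and Gclm passed above Nqo1 in the mean.

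**Figure D2:**
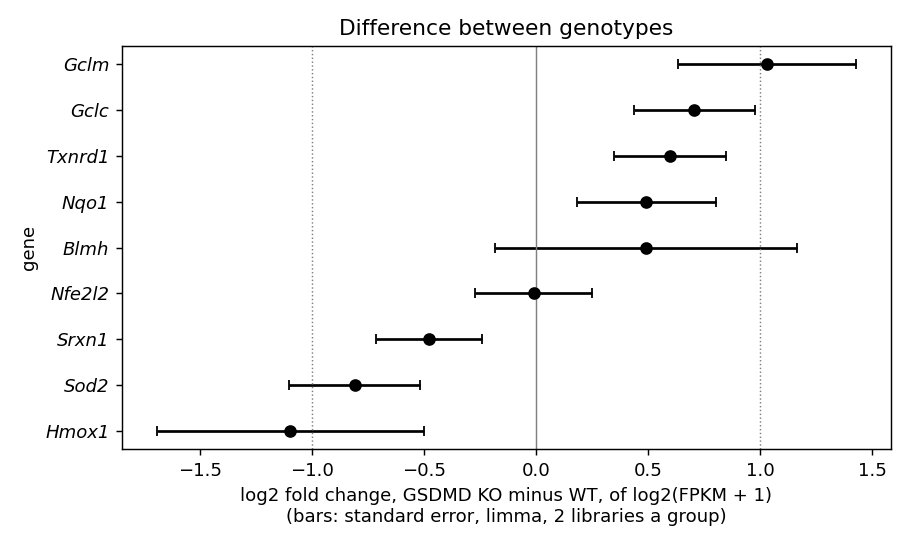
Log2 fold change of the 9 tested genes, GSDMD KO minus WT on the log2(FPKM + 1) scale, with the standard error from limma as bars and dotted lines at the threshold of 1 in either direction. The order runs from Gclm at 1.03 to Hmox1 at -1.10 (-0.04 and -2.17 after centring on epidermal markers), and the longest bar is that of Blmh (SE 0.67).

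Blmh (chromosome 11 of mm9, 76759158 to 76800891, up to 12 exons) was at 60.4 and 39.8 FPKM in the WT and at 137.0 and 34.8 FPKM in the KO libraries. The KO libraries held both the highest and the lowest value, and the groups overlapped. KO replicate 1 was at 2.73 times the WT mean and KO replicate 2 at 0.694 times it. The difference, 50.1 ± 14.6 FPKM in WT against 85.9 ± 72.3 FPKM in GSDMD KO skin (SD, n = 2 each), was smaller than the spread between the KO libraries, with a log2 fold change of 0.49 (SE 0.67) and an adjusted p of 0.702 by limma. It turned to -0.48 without KO replicate 1 and was 1.46 without KO replicate 2, so its direction differed with the KO library left out.

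The order of the libraries for Blmh, KO replicate 1 highest, then WT replicates 1 and 2, then KO replicate 2, was found in 545 of the other 13026 tested genes (4.18%). It was shared by 3 of the other 11 tested genes of filaggrin breakdown, namely Hal, which turns histidine into urocanic acid, and the proteases Asprv1 and Klk5. Hal stood at 2.56 times the WT mean in KO replicate 1 and at 0.445 times it in KO replicate 2. For Asprv1 these ratios were 2.66 and 0.384, and for Klk5 they were 2.31 and 0.321. Of 15 epidermal markers, 3 of the differentiated layers showed it, again as ratios in KO replicates 1 and 2: Krt1 (3.17 and 0.534), Krt10 (3.01 and 0.480) and Lor (2.52 and 0.137). These genes, and the split of the epidermal list that follows, were singled out after the values had been seen.

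Basal keratinocyte genes did not share this order. Krt5 stood at 2.26 and 2.18 times the WT mean in KO replicates 1 and 2, and Krt14 at 2.14 and 2.18 times, and for 7 of 7 basal markers both KO libraries lay above both WT libraries (35.3% of all tested genes). The 5 suprabasal markers summed to 2910 and 1569 FPKM in the WT and to 6280 and 742 FPKM in the KO libraries, whereas the 7 basal markers summed to 2270 and 2180 FPKM in the WT and to 4813 and 5266 FPKM in the KO libraries. The order of Blmh was not confined to the epidermis. Among 10 fibroblast markers 8 had it, with Dcn, also picked after the values had been seen, at 2.23 and 0.144 times the WT mean, and their sum was 381 and 278 FPKM in the WT and 649 and 58.4 FPKM in the KO libraries. It was found in 0 of 12 macrophage, 0 of 10 endothelial and 0 of 7 tested hair follicle markers. The part that suprabasal or fibroblast content had in the Blmh values was not tested.

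**Figure D3:**
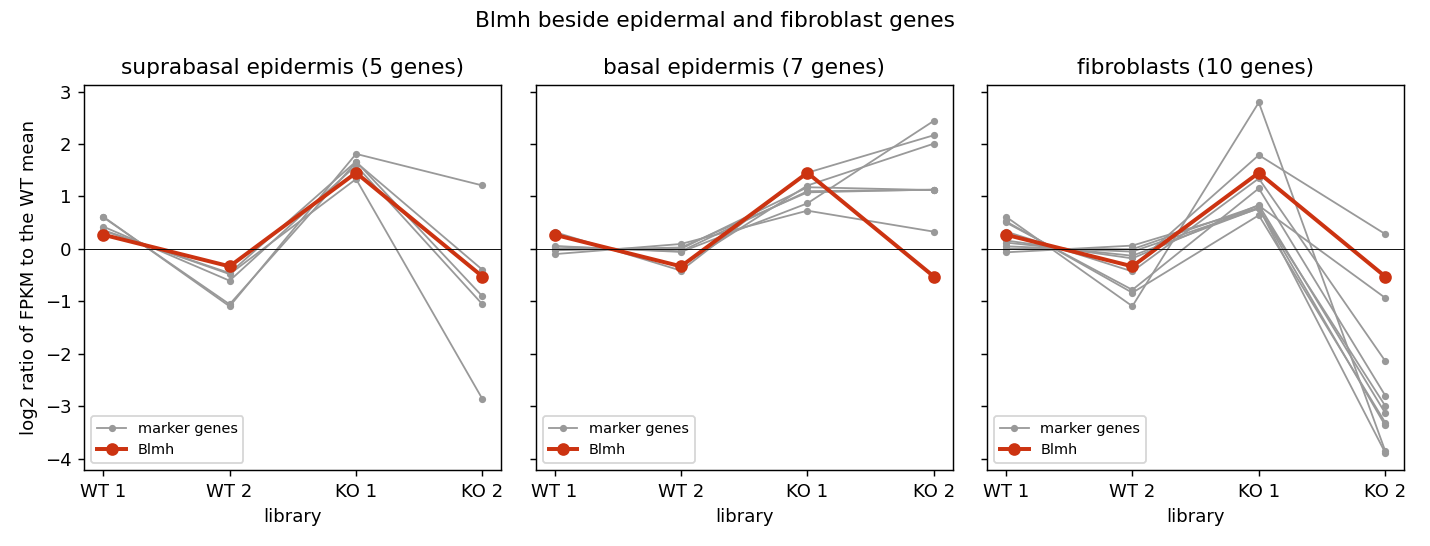
Log2 ratio of FPKM to the WT mean in each library, for Blmh (red) beside 5 suprabasal markers (Krt1, Krt10, Lor, Ivl and Dsg1a), 7 basal genes and 10 fibroblast markers (grey lines). Blmh peaks in KO replicate 1 and is lowest in KO replicate 2, an order of libraries that 3 of the 5 suprabasal and 8 of the 10 fibroblast markers share, while the basal genes stay above 0 in both KO libraries.

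The filaggrin breakdown list had 12 tested genes of 14. Filaggrin itself (Flg) was not analysed here. Of the 12, 0 were called, 2 had an unadjusted p under 0.05 with a log2 fold change above 1, both higher (6.16% of all tested genes), and the median was 0.41. That median was 1.37 when KO replicate 2 was left out and -0.66 with epidermal marker centring. The 2 genes were Casp14, the caspase of cornifying keratinocytes, with 62.8 and 22.8 FPKM in the WT and 112.5 and 82.7 FPKM in the KO libraries, and Prss8, a membrane serine protease, with 13.0 and 5.80 against 23.5 and 20.9 FPKM. Their log2 fold changes were 1.32 and 1.25, or 0.25 and 0.18 with epidermal marker centring. Without WT replicate 1 they were 2.03 and 1.77, and without WT replicate 2 both were smaller than reported. Flg2, a filaggrin relative, had the largest log2 fold change of the list, 1.58 (SE 0.73, adjusted p = 0.336 by limma), or 0.51 without WT replicate 2 and 0.50 with epidermal marker centring. In these 3 genes, unlike in Blmh, KO replicate 2 also stood above both WT libraries. Epidermal markers moved with them, since the 15 markers summed to 5746 and 4052 FPKM in the WT and to 12383 and 7309 FPKM in the KO libraries, and this was not tested as a source.

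Nfe2l2 (chromosome 2, 75513570 to 75542720, minus strand, 5 exons) was at 40.2 and 29.4 FPKM in the WT and at 33.5 and 34.8 FPKM in the KO libraries. Both KO values lay between the WT values. Its log2 fold change was -0.01 (SE 0.26, adjusted p = 0.983 by limma), a value close to 0 whose sign turned in alternatives, with 0.0137 when values were rescaled to TPM, 0.21 without WT replicate 1 and 0.0154 without KO replicate 1. With epidermal marker centring it was -1.08, with either KO value below the WT values, but it was not called (adjusted p = 0.223 by limma). NRF2 is mainly set at the protein level, which RNA does not show. Of 12 tested genes of the list of NRF2 and its regulators, 2 had an unadjusted p under 0.05 with a log2 fold change past 1, 1 higher and 1 lower (6.16% and 4.14% of all tested genes), and the median was 0.01. Nfe2l3, which encodes the related factor NRF3, was at 3.30 and 1.33 FPKM in the WT and at 7.57 and 13.5 FPKM in the KO libraries (log2 fold change 1.82, SE 0.43). Nfe2, a factor of blood-forming cells, was at 2.46 and 6.15 FPKM in the WT and at 0.604 and 0.149 FPKM in the KO libraries (log2 fold change -1.87, SE 0.43). Neither passed over all genes (adjusted p = 0.248 for each by limma). Nfe2l3 was at 0.74 with epidermal marker centring, which lowered Nfe2 by a further 1.07. With a pseudocount of 0.1 Nfe2 was at -3.26.

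The glutamate-cysteine ligase, which carries out the limiting step of glutathione synthesis, has a catalytic subunit, Gclc, and a modifier subunit, Gclm. Gclc (chromosome 9, 77602342 to 77642296, 16 exons) was at 4.93 and 4.30 FPKM in the WT and at 6.88 and 9.63 FPKM in the KO libraries. Gclm (chromosome 3, 121948475 to 121970133, up to 7 exons) was at 8.09 and 7.43 FPKM in the WT and at 11.5 and 24.6 FPKM in the KO libraries. For both subunits the WT libraries were close together and both KO libraries stood above them, with KO replicate 2 the highest. The means were 4.62 ± 0.442 and 8.26 ± 1.94 FPKM for Gclc and 7.76 ± 0.466 and 18.1 ± 9.29 FPKM for Gclm (SD, n = 2 each). The log2 fold changes were 0.71 (SE 0.27) and 1.03 (SE 0.40), with adjusted p-values of 0.288 and 0.290 by limma. Both turned, to -0.37 and -0.042, with epidermal marker centring. The ratio of Gclm to Gclc was 1.64 and 1.73 in WT and 1.67 and 2.56 in KO libraries, so the subunits stood in their WT proportion in KO replicate 1, while KO replicate 2 held more Gclm per Gclc. Without KO replicate 1, which leaves a single KO library assumed to vary like the WT libraries, Gclm was called (log2 fold change 1.55, adjusted p = 0.0185 by limma), in a fit that called 2058 of all genes. Without KO replicate 2 it was 0.51. An exon of Gclm overlaps the annotated long non-coding RNA Gm17494 on the opposite strand, and whether strand was used in counting is not stated in the sources used here.

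Slc7a11 (chromosome 3, 50168858 to 50247535, minus strand, up to 12 exons), which imports the cystine that glutathione is made from, was the lowest of the 10 genes. It was at 0.768 and 0.743 FPKM in the WT and at 0.436 and 0.151 FPKM in the KO libraries, where the last value rests on about 17.9 fragments. Both KO values lay below both WT values, but the gene did not reach 1 FPKM in any library and was not tested. Its KO values thus lay on the other side of the WT values from those of the ligase subunits.

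Of the 21 tested genes of glutathione synthesis and use, 3 were higher and 1 lower at an unadjusted p under 0.05 and a log2 fold change past 1 (6.16% and 4.14% of all tested genes), with a median of 0.07. Beside Gclm, the higher genes were Gpx2, the glutathione peroxidase of epithelia, with 7.60 and 5.45 FPKM in the WT and 18.7 and 38.5 FPKM in the KO libraries, and Ggt6, a member of the gamma-glutamyltransferase family, with 7.50 and 5.57 against 14.6 and 23.2 FPKM. Their log2 fold changes were 1.90 (SE 0.41) and 1.38 (SE 0.32), or 0.83 and 0.30 with epidermal marker centring. The lower gene was Chac1, which degrades glutathione, with 44.3 and 40.9 FPKM in the WT and 21.1 and 15.9 FPKM in the KO libraries (log2 fold change -1.17, SE 0.25). None of the 3 passed over all genes (adjusted p = 0.248 for each by limma), but with epidermal marker centring Chac1 was at -2.25 and was called (adjusted p = 0.00953 by limma). In Gclm, Gclc, Gpx2 and Ggt6 alike, KO replicate 2 was the highest library. Of the 7 basal keratinocyte markers, 5 were likewise highest in KO replicate 2, among them, picked after their values were seen, Krt15 (225 and 670 FPKM in KO replicates 1 and 2) and Trp63 (32.7 and 56.8 FPKM). Of 10 sebaceous gland markers 7 were above both WT libraries in both KO libraries (35.3% of all tested genes), and the 10 summed to 782 and 2103 FPKM in the WT and to 886 and 2804 FPKM in the KO libraries. Scd1 and Mgst1 made up most of that sum, and the other 8, separated after the values had been seen, were all highest in KO replicate 2 and summed to 40.9 and 30.6 FPKM in the WT and to 173.5 and 990 FPKM in the KO libraries. The part of either cell type in these values was not tested.

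Txnrd1 (chromosome 10, 82296696 to 82360469, up to 15 exons), the cytosolic thioredoxin reductase, was at 32.6 and 25.0 FPKM in the WT and at 43.1 and 44.5 FPKM in the KO libraries. The KO libraries were nearly equal and both lay above the WT libraries. The means were 28.8 ± 5.35 FPKM in WT and 43.8 ± 0.988 FPKM in GSDMD KO skin (SD, n = 2 each), with a log2 difference of 0.60 (SE 0.25, adjusted p = 0.302 by limma). Srxn1 (chromosome 2, 151931260 to 151937112, 2 exons), the sulfiredoxin that restores over-oxidized peroxiredoxins, stood the other way. It was at 21.7 and 26.4 FPKM in the WT and at 17.0 and 16.8 FPKM in the KO libraries, with a log2 fold change of -0.48 (SE 0.24, adjusted p = 0.353 by limma). For both genes the direction held with each library left out in turn, and that of Txnrd1 turned (-0.47) with epidermal marker centring.

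In the thioredoxin list, 17 of 17 genes were tested, 3 were higher and 7 lower in both KO libraries (35.3% and 20.5% of all tested genes), and the median was -0.25. Txnrd3, a thioredoxin-glutathione reductase, was at 4.43 and 4.02 FPKM in the WT and at 7.53 and 15.7 FPKM in the KO libraries (log2 fold change 1.19, SE 0.38). Txnip, which binds and inhibits thioredoxin, was at 272 and 278 FPKM in the WT and at 185 and 97.9 FPKM in the KO libraries (log2 fold change -1.03, SE 0.36). Txnrd3 was at 0.12 with epidermal marker centring and smaller than 1.19 without KO replicate 2. Txnip was at -0.57 without KO replicate 2 and at -2.10 with epidermal marker centring. These were the only 2 genes of the list with an unadjusted p under 0.05 and a log2 fold change past 1. The 8 genes that supply NADPH, the electron source of these enzymes, had a median of -0.34. Of these 8, 0 were higher and 1 was lower in both KO libraries (35.3% and 20.5% of all tested genes), and 7 overlapped between the groups. In the pentose phosphate enzymes Tkt and Pgd, which had the largest differences of that list, WT replicate 2 stood apart, at 192 FPKM of Tkt against 69.1 to 78.4 FPKM in the other libraries. Without it the log2 fold change of Tkt was 0.0238 in place of -0.67, and that of Pgd was -0.0213 in place of -0.58.

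Nqo1 (chromosome 8, 109912125 to 109927105, minus strand, 6 exons), the quinone reductase that is widely read as a sign of NRF2 activity, was at 13.8 and 8.996 FPKM in the WT and at 14.1 and 18.5 FPKM in the KO libraries. WT replicate 1 and KO replicate 1 were almost level, so the groups were separated by a narrow margin. The log2 fold change was 0.49 (SE 0.31, adjusted p = 0.429 by limma), and the groups overlapped once upper-quartile or median-ratio scaling was applied. It was 0.78 when WT replicate 1 was left out, smaller than 0.49 when WT replicate 2 was left out, and -0.58 with epidermal marker centring. Of 28 tested genes of quinone, conjugation and carbonyl metabolism, 8 were higher and 10 lower in both KO libraries (35.3% and 20.5% of all tested genes), and the median was -0.11. Aldh3a1, an aldehyde dehydrogenase, was at 7.80 and 8.47 FPKM in the WT and at 15.3 and 64.0 FPKM in the KO libraries. Cbr3, a carbonyl reductase, had 15.98 and 13.1 against 33.9 and 40.8 FPKM. Gsta3, a glutathione S-transferase, had 12.8 and 23.0 against 9.39 and 3.32 FPKM. The log2 fold changes of these 3 genes were 1.83, 1.31 and -1.44 (SEs 0.66, 0.25 and 0.52), and their adjusted p-values lay between 0.248 and 0.278 by limma. With epidermal marker centring Aldh3a1 was at 0.76, Cbr3 at 0.23 and Gsta3 at -2.51. Aldh3a1 was at 2.83 and 0.83 without KO replicates 1 and 2, and Gsta3 at -0.81 without KO replicate 2.

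Hmox1 (chromosome 8, 77617517 to 77624492, up to 5 exons), the inducible haem oxygenase, was at 70.2 and 64.0 FPKM in the WT and at 57.7 and 16.3 FPKM in the KO libraries. KO replicate 1 lay only a little below the WT libraries, at 0.860 times their mean, and KO replicate 2 lay far below, at 0.242 times. The mean was 67.1 ± 4.39 FPKM in WT and 37.0 ± 29.3 FPKM in GSDMD KO skin (SD, n = 2 each), with a log2 difference of -1.10 (SE 0.60, adjusted p = 0.380 by limma). It was -0.21 without KO replicate 2. Without KO replicate 1 it was -1.98 and was called (adjusted p = 0.00739 by limma), again with a single KO library. Macrophages are a known source of Hmox1, and the 12 macrophage markers summed to 926 and 1234 FPKM in WT and to 476 and 44.1 FPKM in KO replicates 1 and 2. Of these 12 markers 10 were below both WT libraries in both KO libraries (20.5% of all tested genes). The part of macrophage content in the Hmox1 values was not tested.

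The haem and iron list had 14 tested genes, of which 1 was higher and 8 were lower in both KO libraries (35.3% and 20.5% of all tested genes), with a median of -0.62. None had an unadjusted p under 0.05 with a log2 fold change past 1. The largest differences were those of the plasma scavengers Hp, which binds haemoglobin, and Hpx, which binds haem. Hp was at 875 and 3522 FPKM in the WT and at 1156 and 62.1 FPKM in the KO libraries, and Hpx had 2.14 and 51.0 against 4.55 and 0.234 FPKM. In both genes WT replicate 2 was far above the rest and the groups overlapped. Adipocyte markers had their extremes in the same libraries, with sums of 3921 and 10507.5 FPKM in the WT and 4563 and 386 FPKM in the KO libraries, and their part was not tested.

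Sod2 (chromosome 17, 13200705 to 13210985, 5 exons) was at 49.5 and 76.1 FPKM in the WT and at 33.4 and 35.9 FPKM in the KO libraries. The KO libraries were close to each other and each was lower than either WT library. Sod2 had the smallest adjusted p of the 9 genes, 0.277 by limma, with a log2 fold change of -0.81 (SE 0.29) that lay between -1.11 and -0.50 when each library was left out in turn. Of the 12 tested genes that remove superoxide and peroxide, a list that shares peroxiredoxins and glutathione peroxidases with the lists above, 0 were higher and 6 were lower in both KO libraries (35.3% and 20.5% of all tested genes), with a median of -0.58, or -0.24 without WT replicate 2. Skeletal muscle markers, of which 7 of 10 were lower in both KO libraries (20.5% of all tested genes), summed to 28842 and 27095 FPKM in the WT and to 17960 and 18917 FPKM in the KO libraries, and macrophage markers were lower as given for Hmox1. Their part in the values of Sod2 and of this list was not tested. Gpx3, the secreted glutathione peroxidase, was at 437 and 373 FPKM in the WT and at 243 and 172 FPKM in the KO libraries (log2 fold change -0.98, SE 0.28, or -2.05 with epidermal marker centring). Sod3, the extracellular superoxide dismutase, had 24.9 and 57.9 against 28.0 and 3.24 FPKM, and its groups overlapped.

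Among genes of superoxide-producing oxidases, 9 of 13 were tested, and 6 were lower and 2 higher at an unadjusted p under 0.05 and a log2 fold change past 1 (4.14% and 6.16% of all tested genes), 8 of the 9 tested genes. The lower genes encode parts of the phagocyte NADPH oxidase and the GTPase that switches it on, and Cyba and Ncf1 had the largest differences among them. Cyba was at 136 and 214 FPKM in the WT and at 56.7 and 4.98 FPKM in the KO libraries (log2 fold change -3.21, SE 1.07), a value that ran from -4.84 when KO replicate 1 was left out to -1.57 when KO replicate 2 was. Ncf1 had 43.2 and 52.9 against 9.54 and 2.38 FPKM (log2 fold change -3.03, SE 0.57, or -4.10 with epidermal marker centring). The 2 higher genes, named after their values were seen, were Duox1, an epithelial oxidase that makes hydrogen peroxide, with 1.32 and 0.498 against 2.02 and 3.64 FPKM, and its maturation factor Duoxa1, with 3.17 and 1.18 against 4.33 and 6.11 FPKM. Their log2 fold changes were 1.01 and 1.03. Epidermal marker centring, which lowered each log2 fold change by 1.07, turned the sign of both. None of the 8 genes was called over all genes tested, and the adjusted p-values of Cyba and Ncf1 were 0.263 and 0.248 by limma. Phagocyte markers moved with the lower genes, with neutrophil markers summing to 767 and 633 FPKM in the WT and 311 and 152 FPKM in the KO libraries beside the macrophage sums given for Hmox1. S100a8 and S100a9, singled out after their values were seen, made up most of the neutrophil sum in each library. S100a8 was at 440 and 287 FPKM in the WT and at 151 and 107 FPKM in the KO libraries, and S100a9 had 312 and 322 against 153 and 41.0 FPKM. The neutrophil markers Ly6g and Mpo were listed at 0 in both KO libraries, but they were at no more than 0.238 FPKM in a WT library. Elane and Ngp, likewise under 1 FPKM and picked here after their values were seen, were highest in KO replicates 1 and 2, at 0.599 and 0.395 FPKM. The part of phagocyte content in the oxidase values was not tested.

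**Figure D4:**
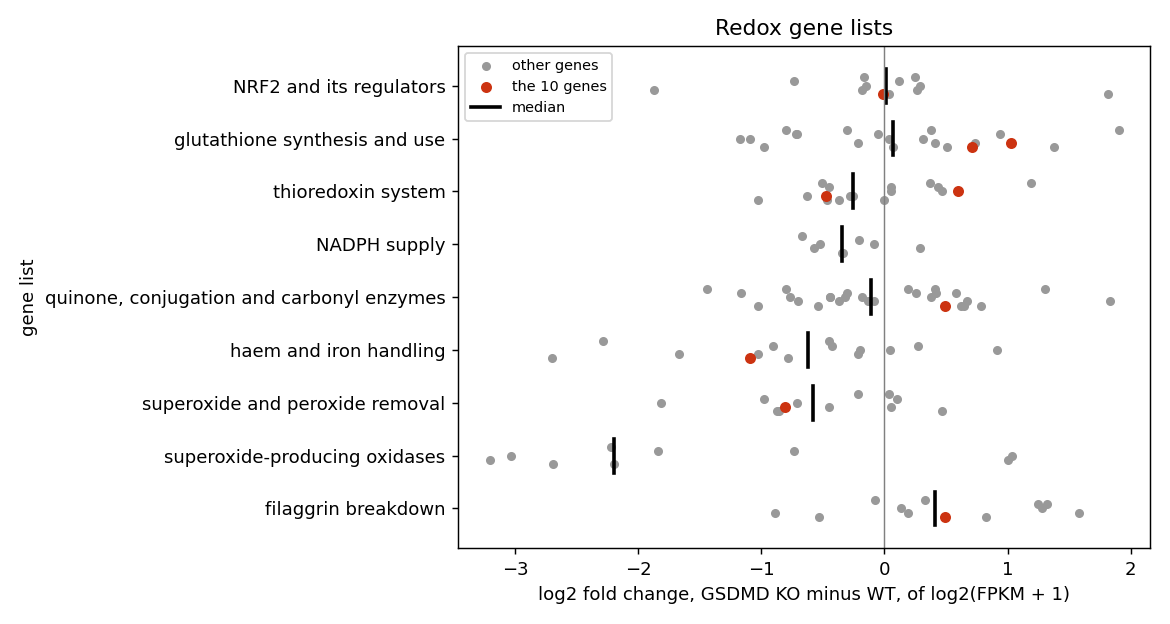
Log2 fold change (GSDMD KO minus WT) of every tested gene in the 9 redox and filaggrin lists, 1 row a list, with the 10 genes of the report in red where tested and the median of each list as a black bar. The oxidase list has the lowest median (-2.20, or -0.73 with every gene above 0 in at least 1 library), the filaggrin breakdown list the highest (0.41, or 1.37 without KO replicate 2 and -0.66 after epidermal marker centring), and in the thioredoxin list Txnrd1 and Srxn1 lie on opposite sides of 0, which they did not after centring on epidermal markers.

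The directions depended on what the libraries were scaled to. Of the 15 epidermal markers 11 were higher in both KO libraries (35.3% of all tested genes), and centring each library on the mean of these markers took the median over all tested genes from 0.11 to -0.96 log2 units and lowered each log2 fold change by 1.07. On that scale Blmh (-0.58), Nqo1 (-0.58), Gclc (-0.37), Txnrd1 (-0.47) and Gclm (-0.042) stood on the other side of 0, and Hmox1 (-2.17, adjusted p = 0.0139) and Sod2 (-1.88, adjusted p = 0.0378 by limma) were called, along with 1660 of all tested genes. Relative to epidermal RNA, 0 of the 9 genes were higher in both KO libraries and 6 were lower, close to the shares over all tested genes on that scale, 1.05% and 70.9%. With median-ratio factors the median of all genes was -0.006, the share of higher and lower genes without overlap became 27.4% and 26.9%, and the signs of the 9 genes were those reported above.

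**Figure D5:**
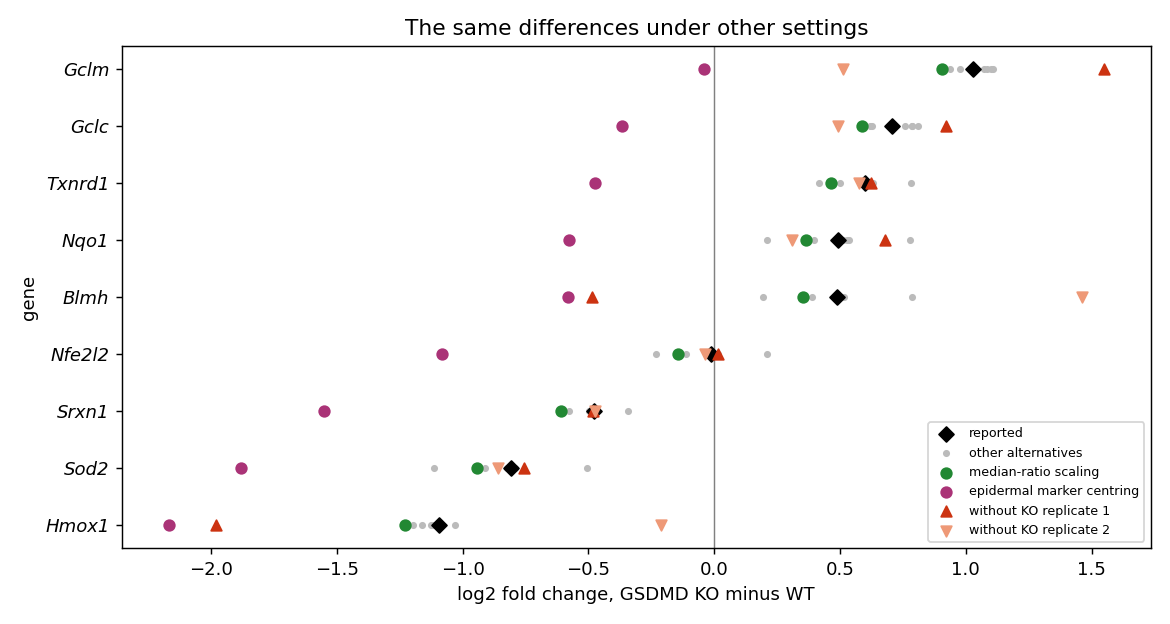
Log2 fold change of the 9 tested genes as reported (black diamonds) and under the alternatives, with median-ratio scaling in green, epidermal marker centring in purple and the fits without each KO library as triangles. Blmh changes side without KO replicate 1, Hmox1 moves from -1.98 to -0.21 with the KO library that is left out, and epidermal marker centring moves every gene to a lower value.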

How the data were processed

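Skin RNA of 2 GSDMD KO and 2 WT libraries was analysed, grouped by the labels, which name no batch. Per the submitters' processing notes and the paper, the authors aligned paired reads to mm9 with HISAT2 (version 2.0.1). StringTie (version 2.0.6) is named in the notes, and per the paper the authors counted reads with featureCounts and ran DESeq2. The deposited table, named as counts, was read as FPKM values, since 99.993% of values above 0 are not whole. The step that gave them is not given in the sources used here, so limma on a log2 scale took the place of a count model. Read depth is not in the table, and the fragment numbers are approximate.

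Values were transformed to log2(FPKM + 1). Genes that reached 1 FPKM in 2 or more libraries, 13027 in all, entered a fit with limma 3.58.1 in R 4.3.3 (empirical Bayes with a mean-variance trend, two-sided, genotype as sole term), adjusted by the Benjamini-Hochberg method. A gene was called when its adjusted p was under 0.05 and its log2 fold change exceeded 1 in size. The fit and the depth estimate were tested on simulated data. Fold changes on this scale understate those of low genes. Tables were made with Python 3.11.15 and pandas 2.3.3.

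The 10 genes and all lists were chosen with earlier results of these data known. Named genes were the 10 genes, Gsdmd, the 2 other tested genes with the largest absolute log2 fold change in each list, and the genes past an unadjusted p under 0.05 with a log2 fold change past 1 where a list had 5 or fewer, with markers listed at 0. Any other gene is said to have been picked once values were known. Loci are those of the table (mm9), and exon counts and overlaps come from GENCODE M1. Alternatives were other pseudocounts (0.1 and 0.5), filters, scalings, a fit without the trend, the replicate number as a block and leaving out each library. Same-numbered libraries were not paired by any source, and their deviations correlated at -0.20. The table names 26 genes as dates, and these were not renamed. Values of some single genes of the lists are not reported here.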

Additional observations from a re-analysis of the deposited data

How the results depend on the processing

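The count of genes called was 0 among the 9 tested under every alternative except epidermal marker centring (2, Hmox1 and Sod2) and leaving out a library (0 to 2, with 2, Hmox1 and Gclm, without KO replicate 1). At an unadjusted p under 0.05 and a log2 fold change past 1, the higher count of 1 (Gclm) became 0 with no filter on low values, upper-quartile scaling, median-ratio scaling and epidermal marker centring, and was 0 to 1 without each library, where the gene was Gclm without KO replicate 1 and Blmh without KO replicate 2. The lower count of 0 became 3 with epidermal marker centring, where 3920 of all 13027 tested genes were lower by the same measure. With the replicate block it became 1 (Hmox1), where 686 of all tested genes were. Epidermal marker centring also took the genes without overlap from 4 higher and 3 lower to 0 and 6 (1.05% and 70.9% of all tested genes), and their median log2 fold change from 0.49 to -0.58. That median was 0.0154 to 0.778 without each library. Signs turned for Blmh (-0.58), Nqo1 (-0.58), Gclc (-0.37), Gclm (-0.0422) and Txnrd1 (-0.47) with epidermal marker centring and for Nfe2l2 with TPM scaling (0.0137). Without each library the log2 fold change ran from -0.48 to 1.46 for Blmh, from -0.23 to 0.21 for Nfe2l2 and from -1.37 to 0.0238 for Tkt. Centring on epidermal markers subtracts their difference from every gene. The cause of the other changes was not tested. Among all genes, the share of higher calls at an unadjusted p under 0.05 with a log2 fold change past 1 was 59.8%. It was 49.6% with upper-quartile scaling, 46.8% with median-ratio scaling and 1.73% with epidermal marker centring. Leaving out KO replicate 2 called 43 genes, none of them among the 9.

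With the replicate number as a block, 0 genes were called and the smallest adjusted p of the 9 was 0.294 by limma. The deviations of same-numbered libraries correlated at -0.20, so a crossed block was added after the data had been seen. It called 0 genes and left Gclm as the only higher gene at an unadjusted p under 0.05 with a log2 fold change past 1. The median of the oxidase list was -2.20 as reported, -0.73 with every gene above 0 in at least 1 library and -3.10 and -1.30 without KO replicates 1 and 2, that of filaggrin breakdown 1.37 without KO replicate 2 and that of superoxide and peroxide removal -0.24 without WT replicate 2. With 2 libraries a group and no read counts, the differences of Nqo1, Txnrd1 and Srxn1 were not called, which does not show that they are absent.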
